A study of Mus musculus with 4 samples.

Results

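The transcripts of 4 inhibitors of cyclin-dependent kinases, Cdkn1b, Cdkn1c, Cdkn2c and Cdkn2d, were followed in single hematopoietic stem and progenitor cells of mouse bone marrow. They were picked by name, 4 of the 32285 genes in the feature list of the deposited matrices, and all 4 passed the filter on low counts in every comparison. The cells were LSK cells, sorted as negative for lineage markers and positive for both Sca-1 and cKit, of C57BL/6 mice. The mice were left untreated (homeostasis) or had been injected intraperitoneally with 5-fluorouracil (5-FU), which is toxic to cells that copy their DNA, at 100 mg/kg and 9 days before harvest. In each condition LSK cells of wild-type and of Sin3b knockout mice, 2 of each genotype at homeostasis and by the same workflow after 5-FU, were pooled by genotype, tagged with 1 of 2 barcoded antibodies and captured in a single droplet library. The study gives the wild-type mice as Sin3B+/+ and, in its methods, as Sin3B F/F, and whether they carried Cre is not stated there. The knockout mice (Sin3BH-/-) were Sin3B F/F; Vav1-iCre+, a Cre that is active in blood cells from the embryo on, so that the loss is not acute and not limited to stem cells. The homeostasis mice were male per the methods. The age of the mice was not given in the sources used here. The labels give each library both genotypes ("WT/3B KO"), and the match of tag to genotype comes from the methods. There were thus 4 pools, 1 for each genotype and condition, and the 5-FU pools were also the other library, so drug and library cannot be told apart.

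CDK inhibitors bind the kinases that drive the cell cycle and hold a cell back in the gap phase before DNA is copied. The CIP/KIP family, to which p27 (Cdkn1b) and p57 (Cdkn1c) belong, binds complexes of cyclins with several kinases, and p57 is known for its part in keeping hematopoietic stem cells quiescent. The INK4 family, to which p18 (Cdkn2c) and p19 (Cdkn2d) belong, binds CDK4 and CDK6 and keeps them from D-type cyclins. Protein levels of p27 in particular are set largely by degradation, which RNA counts do not show. SIN3B is a scaffold of a histone deacetylase complex that represses genes of the cell cycle.

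In GENCODE's annotation of GRCm38, Cdkn1b (ENSMUSG00000003031) lies on the plus strand at chr6:134920401-134925513. Cdkn1c (ENSMUSG00000037664) lies on the minus strand at chr7:143458339-143461050, where the antisense gene Gm44732 overlaps it and held 3, 1, 0 and 0 UMIs (unique molecular identifiers, counted molecules) in the 4 pools. Cdkn2c (ENSMUSG00000028551) lies on the minus strand at chr4:109660876-109667189. Cdkn2d (ENSMUSG00000096472) lies on the minus strand at chr9:21288410-21291407. The deposited matrices hold no coordinates, and the submitters' processing notes name the mm9 build.

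Because the INK4 genes were the members whose levels were higher in G2/M-positive than in non-cycling cells (described further on), the stretches of their promoters that hold an E2F-type core are shown. The letters GCGGGA were searched on both strands in RefSeq's GRCm38.p6 promoter windows, from 250 bases before to 50 bases after each transcript start. They were present in 19.98% of 32851 such windows. In the first of 2 Cdkn2c windows they occurred 3 times, on the coding strand at -152 from the start and as 2 adjacent reverse complements at -24 and -18. This RefSeq start and all 3 matches lie inside the longer GENCODE model of Cdkn2c. The Cdkn2d window held them at -199 from a RefSeq start that lies inside the longer GENCODE model. No match was in the Cdkn1b window or in the second Cdkn2c window, and no window of Cdkn1c was searched. Capitals mark the match, the sequences read along each gene's strand, and a match describes letters only. They run along chr4:109666891-109666920, chr4:109666760-109666789 and chr9:21291391-21291420, in this order.
Cdkn2c, distal: gcgagagggcagGCGGGAgcgccagcgaac
Cdkn2c, proximal: gcccggcctTCCCGCTCCCGCggcgcccta
Cdkn2d: tattcccagcagGCGGGActaatggaggtc
The letters CCAAT, present in 37.4% of windows on either strand, occurred 3 times in the Cdkn1b window, once in the Cdkn2d window and once in the second Cdkn2c window. The letters TTTGAA, present in 17.9% of windows, occurred in none of the windows searched for the members.

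After assignment of genotypes and quality filters, 3313 to 10329 cells per pool were kept, with 32207216 to 84284046 UMIs per pool and a median of 6616 to 10954 UMIs per cell. Levels are given as CPM, counts of a gene per 1000000 UMIs. In the homeostasis library Sin3b itself stood at 81.8 CPM in the wild-type and 23.2 in the knockout pool, and in the 5-FU library at 112 and 15.1. It was thus lower in the knockout pool of both libraries, and the source of the counts that remained there was not tested. Kit was detected in 83.0% to 88.6% of cells, Ptprc in 81.9% to 88.5%, Cd34 in 63.9% to 83.4% and Ly6a, which encodes Sca-1, in 39.1% to 62.0%. The libraries shared 76 cell barcodes. Summed levels of genes of other cell types ranged from 46.7 to 93.0 CPM for 4 hemoglobin genes, 25.7 to 35.2 for 3 B cell genes, 71.4 to 173 for 3 T and NK cell genes, and 2.41 to 7.58 for 4 macrophage genes. For 4 mature neutrophil genes the sum was 51.6 CPM in the homeostasis knockout pool and 10.6 or less in the others, and in its neutrophil-positive class they reached 1252 CPM against 2.86 to 11.7 in the other 3 pools. Droplets of the homeostasis library with 100 UMIs or fewer, which carry free RNA, held Cdkn1b at 48.0, Cdkn1c at 11.4, Cdkn2c at 22.2 and Cdkn2d at 38.2 CPM. These CPM are shares of the free RNA and not amounts of it in cells, so they set no floor for detection. The droplets held 5415913 UMIs over 2193763 barcodes, while cells of that library had a median of 6990 (wild type) and 6616 UMIs (knockout). In that library, with cells grouped by lineage and cell cycle markers as described further on, the wild-type cells of every marker class lay under the free RNA level for Cdkn2d (17.4 to 35.8 CPM). So did S-positive (18.8 and 19.8) and non-cycling cells (24.6 and 30.5) of both genotypes, and stem-positive (35.1), marker-low (31.3) and neutrophil-positive (29.4) knockout cells. Lymphoid-positive (44.3), megakaryocyte-erythroid-positive (52.3) and G2/M-positive (60.5) knockout cells lay above it. Wild-type G2/M-positive cells (38.6) lay close to it. For Cdkn2c the non-cycling cells of both genotypes lay under the free RNA level (15.5 and 20.3). Cdkn1b in marker classes (39.4 to 56.3 CPM) lay on both sides of it, and the part of free RNA in the class and phase differences was not tested.

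Cdkn1b and Cdkn2d differed most between the libraries and Cdkn1c and Cdkn2d most between the genotypes. In this and later sentences 4 values in a row are those of the homeostasis wild-type, homeostasis knockout, 5-FU wild-type and 5-FU knockout pools. Over all cells Cdkn1b stood at 50.1, 52.8, 106 and 91.2 CPM. Cdkn1c stood at 13.9, 20.6, 16.3 and 23.3 CPM. Cdkn1b was thus higher in both 5-FU pools than in both homeostasis pools, whereas Cdkn1c was higher in the knockout pool of each library. Cdkn2c stood at 23.5, 26.7, 30.3 and 28.4 CPM, the narrowest range of the 4 genes. Cdkn2d stood at 27.8, 35.0, 56.5 and 69.0 CPM. In wild-type cells the 5-FU library minus the homeostasis library came to 1.08 for Cdkn1b and 1.02 for Cdkn2d on the log2 scale, and to 0.23 for Cdkn1c and 0.37 for Cdkn2c. Of the genes with at least 100 UMIs, 26.2% differed between the libraries by as much as Cdkn1b and 27.6% by as much as Cdkn2d, and the median of all these genes was -0.12. In knockout cells the same differences were 0.79, 0.98, 0.18 and 0.09. Neither the libraries nor the single pool per genotype within each gave replicates for these values, and they carry no test.

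To follow the inhibitors from stem to lineage-primed cells, each cell was thinned to 4000 UMIs and placed in a class by marker genes other than the members. A cell with at least 3 UMIs from at least 2 genes of a list was positive for it. The lists held 10 stem genes (such as Procr, Hlf and Mecom), 7 neutrophil genes (such as Mpo and Elane), 8 megakaryocyte-erythroid genes (such as Gata1 and Pf4) and 7 lymphoid genes (such as Flt3 and Dntt). Cells positive for none were called marker-low. Those positive for several, 25.2%, 14.6%, 10.8% and 8.11% of the cells of the 4 pools, were left out. These classes are ranges of a score and not cell types, and stem-positive cells made up 53.7%, 70.2%, 46.8% and 55.9% of the cells of the 4 pools. Cells with 2 or 3 UMIs of a list, next to the threshold, made up 15.5% and 24.2% of cells for the stem list at homeostasis and after 5-FU, and 4.81% to 33.6% for the other lists.

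Cdkn1c was the member with a clear gradient along this axis. It was highest in stem-positive cells in all 4 pools and low in every lineage-primed class. In stem-positive cells it stood at 18.1, 25.7, 26.8 and 40.9 CPM. In neutrophil-positive cells the values were 5.19, 0.917, 4.98 and 4.13 CPM. The lowest of these, in the homeostasis knockout pool, rested on 1 UMI in 100 cells, and that class also carried the mature neutrophil RNA given above, whose part in the value was not tested. In lymphoid-positive cells Cdkn1c stood at 4.04, 2.81, 4.22 and 4.22 CPM. In megakaryocyte-erythroid-positive cells it stood at 5.65 (3 UMIs), 0, 3.99 and 7.05 CPM, where the 0 comes from 35 cells with 382692 UMIs and allows up to 7.84 CPM by 3 counts. No lineage-primed class reached the lowest stem-positive pool, and at homeostasis each lay under the 11.4 CPM of the free RNA. Marker-low cells lay between, at 6.09, 6.74, 11.6 and 10.0 CPM. So did the left-out cells positive for several lists, at 11.4, 9.56, 11.5 and 15.9 CPM. The lineage-primed classes could not be ordered among themselves, since their 95% counting intervals overlapped in every pool.

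With pools as blocks, edgeR's quasi-likelihood test on summed UMIs placed Cdkn1c 2.43 ± 0.21 (log2, SE, 4 pools) higher in stem-positive than in neutrophil-positive cells (Benjamini-Hochberg adjusted p = 8e-10). The difference was 2.47 ± 0.26 against megakaryocyte-erythroid-positive (adjusted p = 1.64e-08) and 2.53 ± 0.26 against lymphoid-positive cells (adjusted p = 2.71e-08). Of all genes tested, 52.4%, 50.4% and 30.5% passed the same threshold of 0.05 in the 3 comparisons, so a call alone says little here, and the 28.7%, 28.0% and 15.9% that were higher in stem-positive cells give the background for Cdkn1c. With library size alone in place of TMM scaling the share of calls that were higher in stem-positive cells went from 54.8% to 68.7%, from 55.6% to 64.0% and from 52.3% to 65.0%, and Cdkn1c relative to the median of all genes went from 2.36 to 2.38 in the first. The direction was the same in every pool, with per-pool differences from 1.78 to 4.22 against neutrophil-positive cells. The largest of these rested on the 1 UMI of neutrophil-positive cells in the homeostasis knockout pool. In non-cycling cells alone the differences were 2.36 (adjusted p = 7.24e-07), 1.28 (adjusted p = 0.0333) and 2.84 (adjusted p = 2.55e-08). The study's signatures, from which the members were removed because the LT-HSC list contains Cdkn1c, gave 1.94, 2.08 and 1.65 for LT-HSC against MPP3, MPP2 and MPP4. In the homeostasis wild-type, homeostasis knockout and 5-FU wild-type pools the 4 hemoglobin genes summed to 65.0, 62.4 and 73.9 CPM in stem-positive cells. In neutrophil-positive cells of these pools they summed to 17.2, 13.8 and 48.3 CPM. In lymphoid-positive cells they summed to 95.2, 16.2 and 23.2 CPM, and their part was not tested. The T and NK cell genes also differed between classes. In both homeostasis pools and the 5-FU wild-type pool they summed to 86.4, 53.2 and 108 CPM in stem-positive cells. In neutrophil-positive cells of these pools they summed to 164, 126 and 285 CPM, and their part was not tested. The 3 genes were Cd3d, Trbc2 and Nkg7. In neutrophil-positive cells of the homeostasis knockout pool Cd3d and Trbc2 were at 0, so the sum there was that of Nkg7 alone. Cd3d was also at 0 in those of the homeostasis wild-type pool. The p-values of these class tests rest on how far class differences varied among the 4 pools, which entered as blocks. No genotype had a replicate pool within a condition, so they do not measure the spread between mice.

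**Figure D1:**
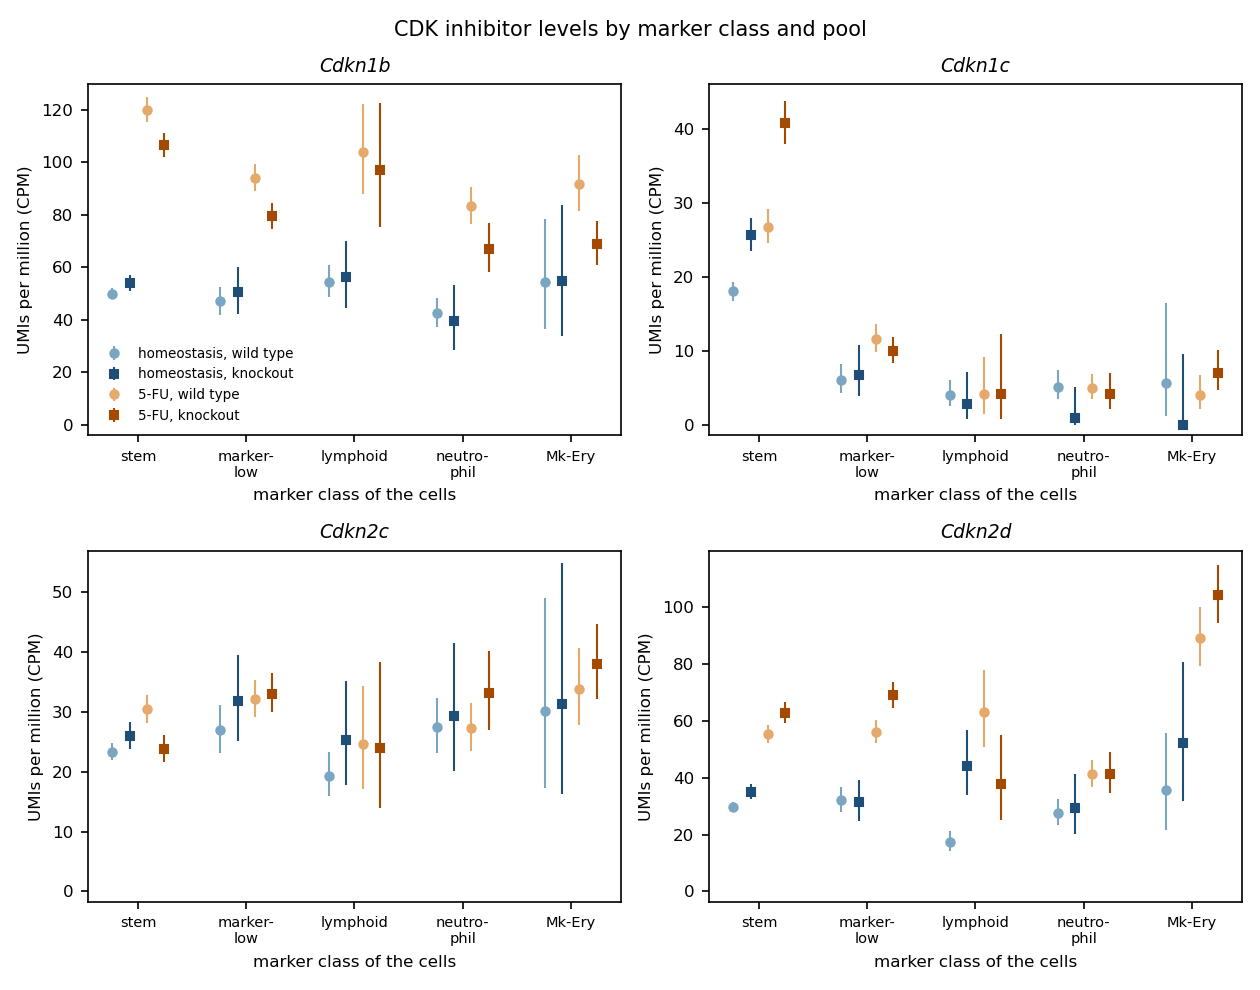
Level of each CDK inhibitor (CPM, vertical axis) in cells of the stem, marker-low, lymphoid, neutrophil and megakaryocyte-erythroid (Mk-Ery) classes, 1 point per pool with its 95% counting interval. For Cdkn1c the stem points, 18.1 to 40.9, lie above all points of the lineage-primed classes, and for Cdkn1b both 5-FU pools (orange) lie above both homeostasis pools (blue) in every class.

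The same order appeared when cells were sorted by the number of stem-marker UMIs they held, in bins chosen after the values were seen. In wild-type cells at homeostasis Cdkn1c went from 2.15 CPM in cells without stem-marker UMIs through 8.84 at 3 to 5 and 21.8 at 10 to 14 to 35.3 CPM at 15 or more. In knockout cells it went from 0.871 (1 UMI) to 52.1 CPM at homeostasis. After 5-FU it went from 6.80 to 77.0 CPM in wild-type and from 6.37 to 109 in knockout cells. The level rose at every step of the 6 bins in all 4 pools. At homeostasis the counting intervals of the genotypes were apart in the top bin alone. After 5-FU they were apart at 6 to 9 UMIs (22.0 to 28.96 CPM in wild-type against 33.9 to 43.0 in knockout cells) and at 10 to 14 (37.2 to 52.3 against 63.7 to 81.5), and overlapped in the top bin (61.0 to 95.97 against 92.4 to 128). In non-cycling cells alone the top bin stood at 40.4, 55.7, 68.9 and 114 CPM and the bin without stem-marker UMIs at 3.51, 0, 6.25 and 3.14, the 0 allowing up to 8.72 CPM by 3 counts. The gradient therefore had the same direction without the cells in S or G2/M.

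**Figure D2:**
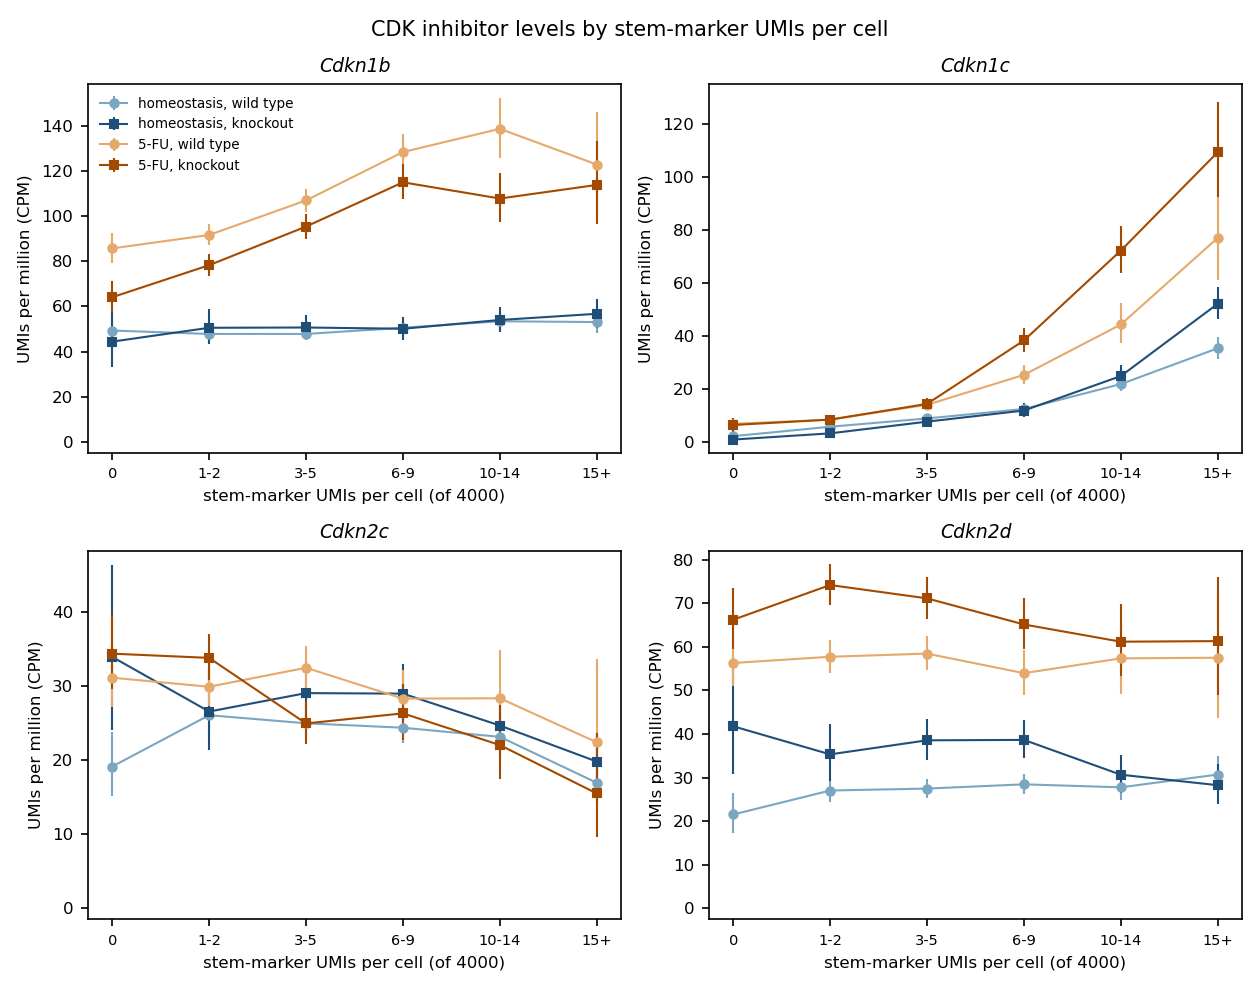
Level of each CDK inhibitor (CPM, vertical axis) against the number of stem-marker UMIs among the 4000 kept per cell (horizontal axis, 6 bins), for the 4 pools, with 95% counting intervals. Cdkn1c climbs to 35.3, 52.1, 77.0 and 109 in the last bin, Cdkn1b goes from 49.3 to 53.1 and 44.4 to 56.7 at homeostasis and over a wider range after 5-FU (85.7 to 139 and 64.0 to 115), Cdkn2c is lowest in the last bin of each pool and Cdkn2d shows no common direction.

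Cdkn1b, the other CIP/KIP gene, lay within a narrow range of classes at homeostasis, 39.4 to 56.3 CPM, and within a wider one after 5-FU, 67.1 to 120.1 CPM. In stem-positive cells it stood at 49.998, 54.0, 120.1 and 107 CPM. In neutrophil-positive cells it stood at 42.6, 39.4, 83.4 and 67.1 CPM. Stem-positive cells were thus higher in all 4 pools, by 0.32 ± 0.07 on the log2 scale (adjusted p = 0.000532). Lymphoid-positive cells, at 54.5, 56.3, 104 and 97.0 CPM, lay close to the stem-positive cells, with a difference of -0.03 ± 0.08 (adjusted p = 0.862). Megakaryocyte-erythroid-positive cells stood at 54.6, 54.9, 91.7 and 69.0 CPM, below stem-positive cells in the 5-FU pools and not at homeostasis. The fit over all pools gave 0.26 ± 0.08 (adjusted p = 0.0105), which was 0.13 (adjusted p = 0.436) without the 5-FU knockout pool and 0.25 (adjusted p = 0.145) without the 5-FU wild-type pool. It was 0.05 (adjusted p = 0.532) between the study's LT-HSC and MPP2 signatures, and its sign turned with classes called on all UMIs and in non-cycling cells. Along the stem-marker bins Cdkn1b went from 49.3 to 53.1 and from 44.4 to 56.7 CPM at homeostasis. After 5-FU it went from 85.7 to a high of 139 at 10 to 14 stem-marker UMIs in wild-type cells, and from 64.0 to 114 CPM in knockout cells. The difference from neutrophil-positive cells was 0.17 (adjusted p = 0.339) in non-cycling cells alone and 0.16 (adjusted p = 0.0516) between the study's LT-HSC and MPP3 signatures.

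Both INK4 genes were lower in stem-positive than in megakaryocyte-erythroid-positive cells. Cdkn2c stood at 23.3, 26.0, 30.4 and 23.8 CPM in stem-positive cells. In megakaryocyte-erythroid-positive cells it stood at 30.1, 31.4, 33.8 and 38.0 CPM, higher than in stem-positive cells in each pool. Its difference of stem-positive from megakaryocyte-erythroid-positive cells was -0.49 ± 0.12 (adjusted p = 0.00112), and that from neutrophil-positive cells, which stood at 27.4, 29.4, 27.2 and 33.1 CPM, was -0.30 ± 0.10 (adjusted p = 0.0139), although in the 5-FU wild-type pool the stem-positive cells were the higher ones. The first was -0.33 (adjusted p = 0.0927) without the 5-FU knockout pool. The second was -0.19 (adjusted p = 0.193) without the 5-FU knockout pool and -0.28 (adjusted p = 0.0607) without the homeostasis wild-type pool, and its adjusted p was 0.14 with library size alone, 0.064 with a stricter tag call and 0.115 with classes called on all UMIs, where the first came to -0.05 (adjusted p = 0.904). Cdkn2d stood at 29.8, 35.1, 55.4 and 62.9 CPM in stem-positive and at 35.8, 52.3, 89.3 and 104 in megakaryocyte-erythroid-positive cells. It was lower in stem-positive cells of each pool, by -0.77 ± 0.14 (adjusted p = 4.57e-05). Against neutrophil-positive cells, at 27.8, 29.4, 41.3 and 41.3 CPM, it was higher in stem-positive cells of each pool, by 0.23 ± 0.13 (adjusted p = 0.15). That difference passed the test in 5 alternatives, with library size alone (0.37, adjusted p = 0.0179), without a low-count filter (0.25, adjusted p = 0.0345), without the homeostasis wild-type pool (0.31, adjusted p = 0.0403), at a marker threshold of 5 UMIs (0.31, adjusted p = 0.0498) and between the study's LT-HSC and MPP3 signatures (0.26, adjusted p = 0.00949). The difference from lymphoid-positive cells passed the test for neither gene (0.11 ± 0.12 for Cdkn2c, adjusted p = 0.568, and 0.17 ± 0.15 for Cdkn2d, adjusted p = 0.452). With the study's LT-HSC and MPP4 signatures it passed for Cdkn2d (0.28, adjusted p = 0.0127). Cdkn2d ranged from 17.4 to 63.3 CPM between the lymphoid-positive pools, at 17.4, 44.3, 63.3 and 38.0. The 3 B cell genes summed to 32.0, 106, 133 and 70.3 CPM in the same class, in the same order of pools, with Ms4a1 at 0 in all but the homeostasis wild-type pool. Their part in the Cdkn2d values was not tested. In total 2 of 4 members were called higher and 1 lower in stem-positive than in neutrophil-positive cells (28.7% and 23.7% of all genes were), 2 higher and 2 lower than in megakaryocyte-erythroid-positive cells (28.0% and 22.4% of all genes), and 1 higher than in lymphoid-positive cells (15.9% of all genes).

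The share of dividing cells also differed between these classes. G2/M-positive cells made up 16.3%, 9.40%, 7.92% and 7.62% of stem-positive cells, but 40.3%, 37.0%, 27.8% and 40.8% of neutrophil-positive and 36.2%, 45.7%, 46.3% and 52.1% of megakaryocyte-erythroid-positive cells. Of lymphoid-positive cells they made up 19.2%, 22.3%, 21.9% and 16.4%. In non-cycling cells alone the difference of stem-positive from megakaryocyte-erythroid-positive cells was -0.24 for Cdkn2d (adjusted p = 0.441), 0.07 for Cdkn2c (adjusted p = 0.916) and -0.12 for Cdkn1b (adjusted p = 0.688). That of Cdkn2c from neutrophil-positive cells was -0.24 (adjusted p = 0.385). These values rest on only 5 to 44 non-cycling megakaryocyte-erythroid-positive cells per pool. Of the 4 members, only Cdkn1c passed the test against each class in non-cycling cells.

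The cell cycle was then taken as the axis itself. Cells were called G2/M-positive from 18 genes such as Mki67 and Top2a, S-positive from 18 genes such as Rrm2 and Tyms, and non-cycling with at most 1 UMI of both lists together, a cut that does not separate resting cells from cells in early G1. Cells positive for both lists were counted as G2/M-positive. The G2/M class can thus hold cells still in S, and the S class holds only cells negative for the G2/M list. Cells with 2 or 3 UMIs of the G2/M list made up 9.95% and 10.4% of the cells of the 2 libraries, and those of the S list 16.7% and 16.6%. The CIP/KIP gene Cdkn1c was lower in S-positive and G2/M-positive cells, and both INK4 genes were higher in G2/M-positive cells.

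Cdkn1c stood at 16.2, 26.2, 21.01 and 40.7 CPM in the non-cycling cells of the pools. In S-positive cells it stood at 11.5, 7.04, 10.4 and 9.55, and in G2/M-positive cells at 10.6, 8.82, 8.45 and 9.29. The non-cycling pools lay above all S-positive and G2/M-positive pools and were widely spread, while those of dividing cells were close together. At homeostasis the S-positive and G2/M-positive levels lay near or under the 11.4 CPM of the free RNA, whose part was not tested. The difference from non-cycling cells was -1.27 ± 0.18 in G2/M (adjusted p = 2.56e-05) and -1.22 ± 0.20 in S (adjusted p = 0.000181). Within stem-positive cells alone Cdkn1c was also lower in G2/M in each pool, at 12.4, 12.6, 18.2 and 13.5 CPM against 21.6, 32.0, 28.8 and 53.5 in non-cycling cells. The T and NK cell genes summed to 87.3, 55.2 and 133 CPM in non-cycling cells of the homeostasis pools and the 5-FU wild-type pool. In G2/M-positive cells of these pools they summed to 124, 109 and 225 CPM, and their part was not tested. The 4 hemoglobin genes summed to 63.1, 71.1 and 49.9 CPM in non-cycling cells of the same pools. They summed to 34.9, 15.9 and 58.3 CPM in G2/M-positive cells, and their part was not tested either.

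Cdkn2c stood at 15.5, 20.3, 27.3 and 23.5 CPM in non-cycling cells. In S-positive cells it stood at 18.7, 23.3, 26.4 and 21.3, within the range of the non-cycling cells. In G2/M-positive cells it stood at 39.4, 47.5, 39.6 and 41.3 CPM, above every non-cycling and S-positive pool. The difference of G2/M from non-cycling cells was 1.09 ± 0.09 (adjusted p = 7.59e-08), and that of S was 0.14 ± 0.11 (adjusted p = 0.301). In each of the 5 marker classes and each pool G2/M-positive cells had the higher level, with only 3 and 1 UMIs in the non-cycling megakaryocyte-erythroid-positive cells of the homeostasis pools, and within stem-positive cells the differences were 1.57, 1.26, 0.69 and 0.50. Sorted by the sum of S and G2/M marker UMIs, Cdkn2c stayed at 15.3 to 28.0 CPM up to 5 UMIs and reached 53.6, 56.4, 50.8 and 51.3 CPM at 21 or more.

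Cdkn2d was lower in S-positive and, like Cdkn2c, higher in G2/M-positive than in non-cycling cells. It stood at 24.6, 30.5, 52.7 and 58.9 CPM in non-cycling cells and at 18.8, 19.8, 38.7 and 45.5 in S-positive cells, lower in each pool. In G2/M-positive cells it stood at 38.6, 60.5, 79.2 and 99.4 CPM, higher than in the non-cycling cells of each pool. The difference from non-cycling cells was -0.34 ± 0.08 in S (adjusted p = 0.00375) and 0.85 ± 0.07 in G2/M (adjusted p = 1.18e-07). From S to G2/M, a contrast given without a test, the per-pool differences were 1.03 to 1.60 for Cdkn2d and 0.58 to 1.07 for Cdkn2c.

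Cdkn1b was lower in S-positive cells too. It stood at 50.4, 53.6, 118 and 108 CPM in non-cycling, at 39.6, 39.7, 86.3 and 66.5 in S-positive and at 53.4, 54.9, 91.0 and 79.6 in G2/M-positive cells. S-positive cells were the lowest in each pool, with a difference of -0.41 ± 0.07 from non-cycling cells (adjusted p = 0.000303). With classes called on all UMIs the S difference was -0.11 for Cdkn1b (adjusted p = 0.33) and -0.20 for Cdkn2d (adjusted p = 0.142). The Cdkn1b difference in G2/M was -0.07 ± 0.07 (adjusted p = 0.365). G2/M-positive cells lay slightly above non-cycling cells at homeostasis and below them after 5-FU. In all, 3 of 4 members passed the test in G2/M, where 54.8% of all genes did, 2 of them higher and 1 lower (23.7% and 31.2% of all genes). In S 3 of 4 passed, where 45.1% of all genes did, and all 3 were lower (25.4% of all genes), so the number of calls is no feature of the members. Of the calls in G2/M 43.2% were higher, and 32.1% with library size alone, where the median of all genes moved from -0.09 to -0.19 and Cdkn2c stayed 1.17, Cdkn2d 0.92 and Cdkn1c -1.20 from it.

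**Figure D3:**
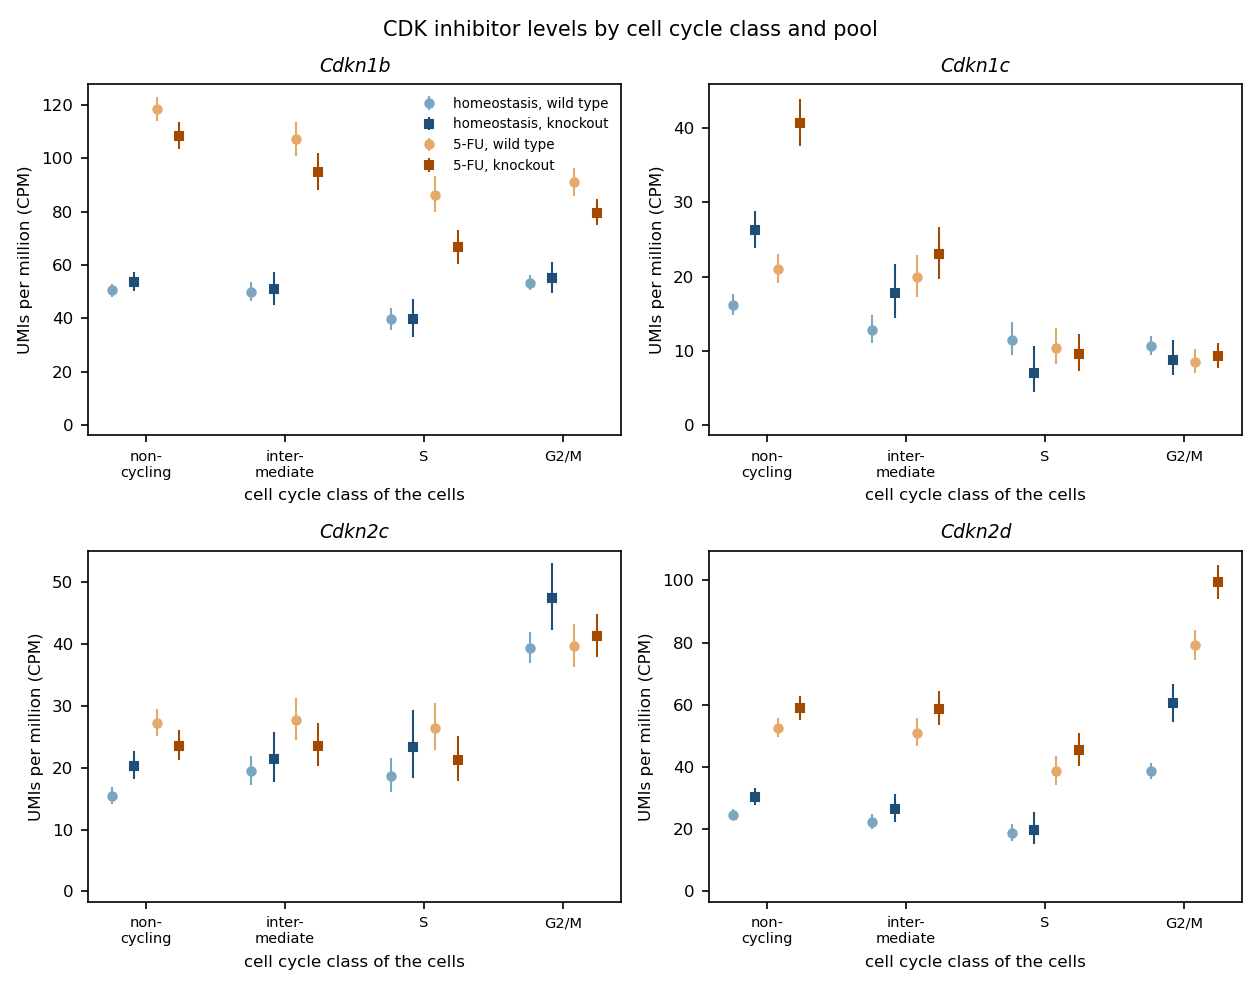
Level of each CDK inhibitor (CPM, vertical axis) in non-cycling, intermediate, S-positive and G2/M-positive cells, 1 point per pool with its 95% counting interval. Cdkn1c is highest in non-cycling cells of each pool, Cdkn2c and Cdkn2d are highest in G2/M-positive cells of each pool, and Cdkn1b is lowest in S-positive cells of each pool.

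**Figure D4:**
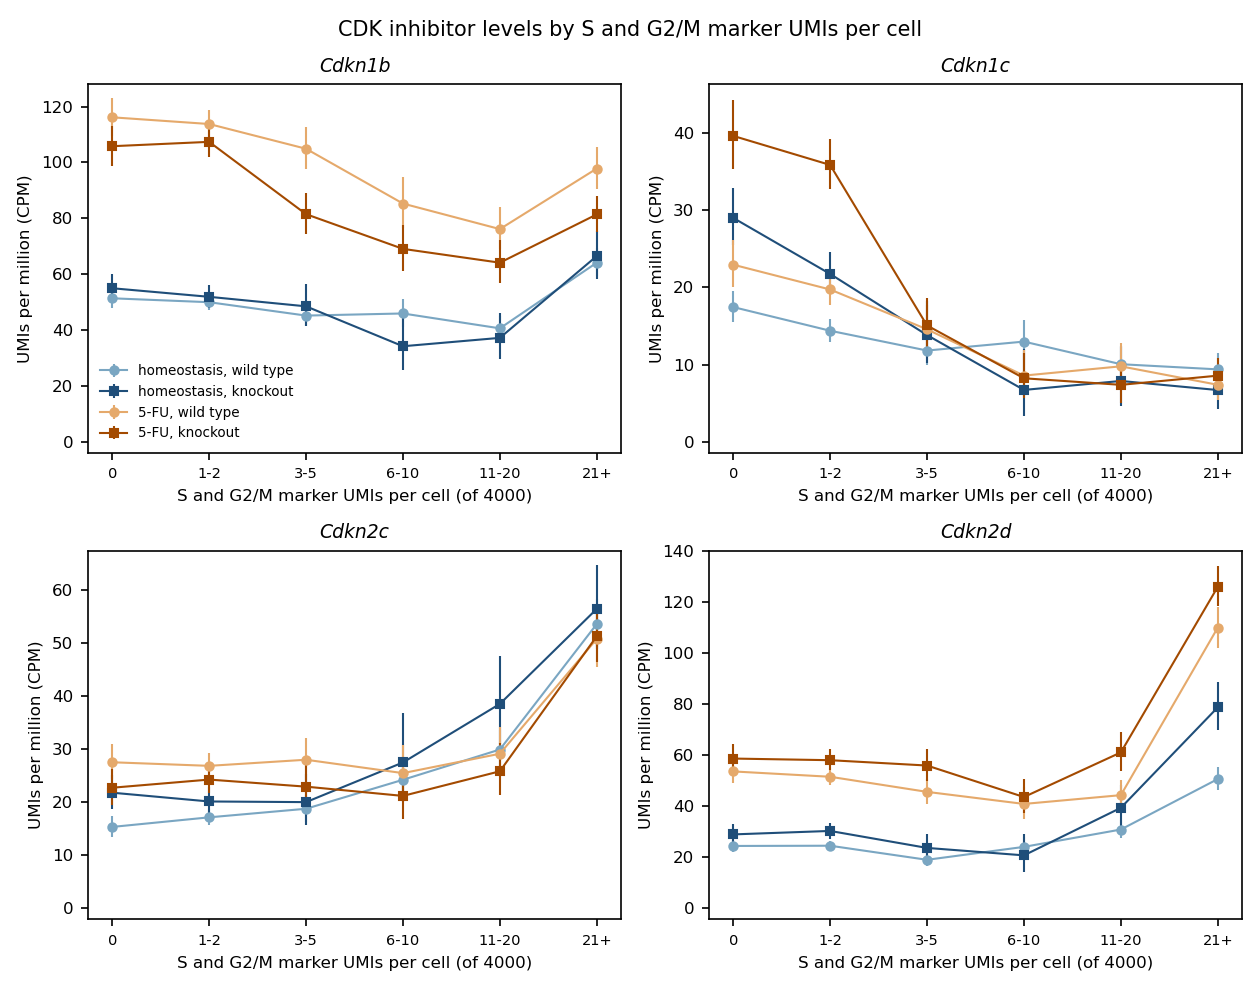
Level of each CDK inhibitor (CPM, vertical axis) against the number of S and G2/M marker UMIs among the 4000 kept per cell (horizontal axis, 6 bins chosen after the values were seen), for the 4 pools, with 95% counting intervals. In the last bin Cdkn2c reaches 50.8 to 56.4 in all pools, Cdkn2d 50.7 to 126, Cdkn1b turns up after its dip, and Cdkn1c ends at 6.71 to 9.38.

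The contrast of G2/M with non-cycling cells was then compared between conditions within the same fit, a ratio inside each library, although condition and library still cannot be told apart. For Cdkn2c the per-pool contrast was 1.34 and 1.22 at homeostasis and 0.54 and 0.81 after 5-FU, an interaction of -0.46 ± 0.13 (adjusted p = 0.0319). Its G2/M levels lay between 39.4 and 47.5 CPM in both libraries, and its non-cycling levels were higher after 5-FU. For Cdkn1b the contrast was 0.08 and 0.04 at homeostasis and -0.38 and -0.44 after 5-FU, an interaction of -0.31 ± 0.09 (adjusted p = 0.0418). Across all genes 9.18% passed this test, 6.68% with a higher and 2.50% with a lower contrast after 5-FU like these 2 members, and the median interaction was 0.07, so that relative to the median the values were -0.53 for Cdkn2c and -0.38 for Cdkn1b. The interaction was 0.04 ± 0.12 for Cdkn2d (adjusted p = 0.919), whose sign turned under other scalings. It was -0.63 ± 0.31 for Cdkn1c (adjusted p = 0.233). For Cdkn1c it ran from -1.13 without the 5-FU wild-type pool (adjusted p = 0.0691) and -0.37 without the 5-FU knockout pool (adjusted p = 0.689) to -0.02 without the homeostasis wild-type pool (adjusted p = 1). It passed the test without the homeostasis knockout pool (-0.98, adjusted p = 0.0148), without a low-count filter (-0.65, adjusted p = 0.00861) and with a tag holding 80% of hashtag UMIs (-0.80, adjusted p = 0.0488). Of the genes called in this test 72.8% had the higher contrast after 5-FU, but 34.6% with DESeq2's size factors and 20.6% with library size alone, where the median moved to -0.03 and -0.09 and the 2 called members kept their distance from it. Without the homeostasis wild-type pool the adjusted p was 0.302 for Cdkn2c and 0.353 for Cdkn1b, without the 5-FU wild-type pool it was 0.103 for Cdkn2c, without the homeostasis knockout pool 0.0753 for Cdkn1b, and in DESeq2 it was 0.203 and 0.126. It was 0.15 for Cdkn2c with classes called on all UMIs, and for Cdkn1b 0.0503 at a tag quantile of 0.95 and 0.0535 with lineage cells kept. Between genotypes no gene passed the test of this contrast in edgeR as fitted (0% called, 559 genes at an unadjusted p under 0.05), while 3 genes were called in DESeq2, 57 in edgeR without a low-count filter and 1 to 7 in edgeR without 1 pool. Cdkn1c was the member with the largest value there, with per-pool contrasts of -0.61 and -1.31 in wild-type and -1.56 and -2.13 in knockout cells and an interaction of -0.93 ± 0.22 (unadjusted p = 0.000852, adjusted p = 0.981, but 0.00868 without a low-count filter).

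A list of 23 other genes of the CDK and RB pathway was measured beside the members, and 21 passed the filter on low counts. In G2/M-positive cells 13 were higher and 6 lower than in non-cycling cells, and in S-positive cells 15 were higher and 4 lower, with medians of 0.65 and 0.88 against -0.09 over all genes in both. Of all genes 23.7% were higher and 31.2% lower in G2/M, and 19.8% and 25.4% in S. The largest differences in G2/M were those of E2f2 (3.89) and E2f1 (2.68), activator E2F factors, Ccne1 (3.41) and Ccne2 (3.11), the E-type cyclins, Cks1b (2.96), a cofactor in the degradation of p27, and the pocket protein Rbl1 (1.68). In stem-positive against neutrophil-positive cells 4 were higher and 14 lower (28.7% and 23.7% of all genes were). Those higher were Foxo1 (1.17), a transcription factor, E2f5 (0.83), the pocket protein gene Rbl2 (0.54) and Ccnd3 (0.54), a D-type cyclin. Those lower were led by Cdkn1a (-1.98), the p21 inhibitor, Ccne1 (-1.79), E2f1 (-1.53), Cks1b (-1.52), E2f2 (-1.37) and Ccne2 (-1.36). Against megakaryocyte-erythroid-positive cells 4 were higher and 16 lower (28.0% and 22.4% of all genes), and against lymphoid-positive cells 2 and 6 (15.9% and 14.5% of all genes were). Cdkn1a, the remaining CIP/KIP gene, was lower in stem-positive than in megakaryocyte-erythroid-positive (-0.86 ± 0.27, adjusted p = 0.00987) and lymphoid-positive cells (-1.83 ± 0.23, adjusted p = 8.71e-07) as well. It was higher in G2/M-positive than in non-cycling cells (1.14 ± 0.12, adjusted p = 8.06e-07), and it stood at 7.61, 5.65, 10.99 and 11.9 CPM over all cells of the pools. Cdkn2a and Cdkn2b, the remaining INK4 genes, were the 2 that did not pass the filter, with 14, 5, 8 and 8 UMIs and 2, 1, 0 and 3 UMIs in the pools. Expression of these 2 genes was not detectable beyond a few molecules at this depth.

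For each member the genes with the most similar pattern were sought over 41 groups of library, marker class and phase, 20 at homeostasis and 21 after 5-FU, on log2(CPM + 1) centred within each library. Among 6972 genes outside the marker lists, Cdkn1c was closest to Cadps2 (Pearson r = 0.83), A930005H10Rik (0.80) and Gbp7 (0.79). Cdkn1b was closest to Chd2 (0.85), a chromatin remodeler, Ip6k1 (0.83) and Zfp157 (0.81). Cdkn2c was closest to the telomere protein gene Terf1 (0.89) and the mitotic genes Cenpq (0.86) and Aspm (0.86). Cdkn2d was closest to the linker histone genes H1fx (0.85) and Hist1h1c (0.80) and to Med4 (0.81), which encodes a Mediator subunit. Among the members the INK4 pair had the highest coefficient, 0.71, and the other pairs lay between 0.11 and 0.32. The groups share libraries and differ in depth, and the coefficients are descriptive.

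Between genotypes, Cdkn1c and Cdkn2d had the higher CPM in the knockout pool of both libraries, while Cdkn1b and Cdkn2c had no common direction. With 1 pool per genotype in a library the ratio carries a counting interval and no test. Over all cells the log2 ratio of knockout to wild type was 0.57 (95% counting interval 0.43 to 0.71) for Cdkn1c at homeostasis and 0.52 (0.38 to 0.65) after 5-FU. For Cdkn2d it was 0.33 (0.23 to 0.44) and 0.29 (0.22 to 0.36). For Cdkn1b it was 0.07 (-0.01 to 0.16) at homeostasis and -0.22 (-0.28 to -0.16) after 5-FU, and for Cdkn2c it was 0.19 (0.07 to 0.30) and -0.09 (-0.20 to 0.02). The interval left out 0 for 3 of 4 members in each library, as it did for 50.9% of 14116 genes at homeostasis and 53.3% of 12500 genes after 5-FU, so counting error alone sets a low bar.

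The ratio of Cdkn1c took different values by phase, although the test of its G2/M contrast between genotypes, given above, did not pass (adjusted p = 0.981). In non-cycling cells it was 0.70 at homeostasis and 0.95 after 5-FU, with intervals of 0.51 to 0.88 and 0.78 to 1.13. In G2/M-positive cells it was -0.26 (-0.71 to 0.15) and 0.14 (-0.25 to 0.52), and in S-positive cells -0.69 (-1.44 to -0.04) and -0.12 (-0.63 to 0.39). In both of these classes the homeostasis levels of Cdkn1c lay near or under that of the free RNA, whose part was not tested. In stem-positive cells the ratio was 0.51 and 0.61. In the same cells the 3 T and NK cell genes were lower in the knockout pool of both libraries, at 53.2 against 86.4 CPM at homeostasis and 55.8 against 108 after 5-FU. In non-cycling cells at homeostasis they were also lower in the knockout pool, at 55.2 against 87.3 CPM. Their part in the Cdkn1c ratios was not tested. In marker-low cells the Cdkn1c ratio was 0.17 (-0.76 to 0.995) and -0.21 (-0.56 to 0.14). The interval lay above 0 in stem-positive and non-cycling cells of both libraries and did not in S-positive or G2/M-positive cells of either. Knockout pools also held more stem-positive cells, and with the same mix of marker class and phase in both genotypes the Cdkn1c ratio was 0.24 at homeostasis and 0.38 after 5-FU. That of Cdkn2d was then 0.38 and 0.21. This mix does not even out the number of stem-marker UMIs within a class, along which Cdkn1c rose. At homeostasis Cdkn1c stood at 12.4 CPM in wild-type and 11.8 in knockout cells with 6 to 9 such UMIs. With 10 to 14 it stood at 21.8 and 24.8, and with 15 or more at 35.3 and 52.1. After 5-FU these values were 25.3 and 38.3, 44.3 and 72.2, and 77.0 and 109. The Cdkn2d ratio had its interval above 0 in both libraries in stem-positive cells, at 0.24 (0.10 to 0.37) and 0.18 (0.07 to 0.30), in non-cycling cells, at 0.31 (0.14 to 0.47) and 0.16 (0.04 to 0.29), and in G2/M-positive cells, at 0.65 (0.47 to 0.82) and 0.33 (0.21 to 0.45). In G2/M-positive cells at homeostasis the mature neutrophil genes summed to 217 CPM in the knockout and 9.53 CPM in the wild-type pool, and their part in the first ratio was not tested. In lymphoid-positive cells the libraries gave opposite signs for Cdkn2d, 1.35 (0.87 to 1.82) in the homeostasis library and -0.72 (-1.42 to -0.10) in the 5-FU library, and the B cell genes of that class, given above, were likewise higher in the knockout pool at homeostasis and lower in it after 5-FU. Cdkn2c in stem-positive cells went opposite ways in the libraries, at 0.16 (an interval that includes 0 and reaches 0.31) and -0.35 (-0.53 to -0.18).

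**Figure D5:**
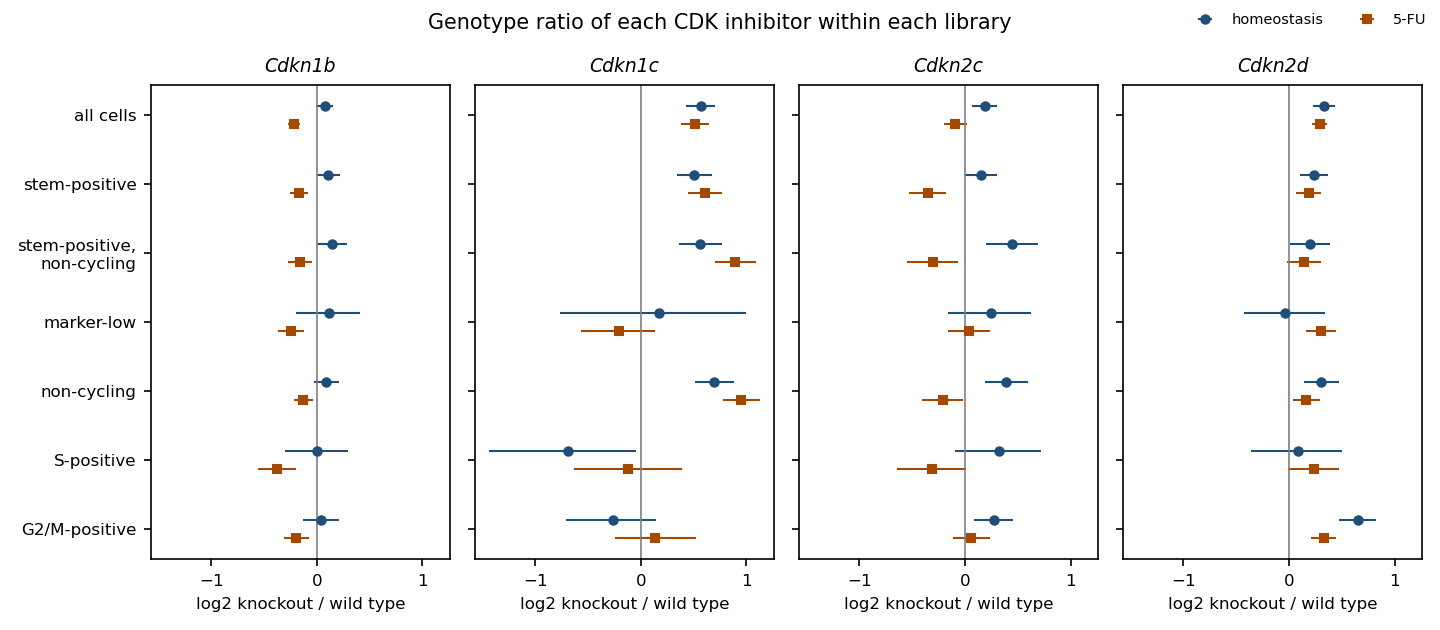
Log2 ratio of knockout to wild-type CPM of each CDK inhibitor (horizontal axis) in all cells and in 6 classes of cells, at homeostasis (circles) and after 5-FU (squares), with 95% counting intervals that hold no biological replicate error. The interval of Cdkn1c lies right of 0 in all, stem-positive and non-cycling cells of both libraries and in no S-positive or G2/M-positive cells, and that of Cdkn2d lies right of 0 in all, stem-positive, non-cycling and G2/M-positive cells of both libraries.

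Over both libraries, with condition as a term and 1 residual degree of freedom, no member passed the test of knockout against wild type in all cells, where 0.522% of genes did, or in stem-positive cells, where 0.324% did. In all cells edgeR gave 0.55 ± 0.09 for Cdkn1c (unadjusted p = 0.00128, adjusted p = 0.0925, but 0.0238 with library size alone and 0.0214 without a low-count filter), higher in knockout cells of 2 of 2 libraries, and 0.32 ± 0.08 for Cdkn2d (adjusted p = 0.182), also in 2 of 2. Cdkn2c (0.06 ± 0.10, adjusted p = 0.873) and Cdkn1b (-0.06 ± 0.09, adjusted p = 0.839) did not pass, and their ratios had opposite signs in the libraries. The 1 residual degree of freedom holds only how far the genotype ratio differed between the libraries. In stem-positive cells the values were 0.56 ± 0.09 for Cdkn1c (adjusted p = 0.0912), 0.22 ± 0.07 for Cdkn2d (adjusted p = 0.302), -0.09 ± 0.14 for Cdkn2c (adjusted p = 0.835) and -0.03 ± 0.09 for Cdkn1b (adjusted p = 0.926). For Cdkn1c in stem-positive cells the call turned with the settings. It stayed uncalled in 4 of the 11 alternatives and was called in the others. Over the 11 alternatives the adjusted p ran from 9.55e-05 without a low-count filter and 0.00189 in non-cycling stem-positive cells (0.73 on the log2 scale) to 0.31 in DESeq2, and the difference was positive in each, from 0.51 to 0.73. Of the 21 pathway genes tested, only Cdk6, which encodes the kinase bound by INK4 proteins, passed in stem-positive cells (-0.64 ± 0.07, adjusted p = 0.047), and none passed in all cells.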

How the data were processed

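Single-cell 3' libraries of LSK cells with hashtag antibodies were deposited as 2 matrices of raw UMI counts, 1 per condition, over 32285 genes and 2 hashtags. Per the file headers the authors made these counts with Cell Ranger, version 4 for homeostasis and 6.0.1 for 5-FU. The submitters' notes also name Seurat and DESeq2. The homeostasis matrix lists 6794880 barcodes, among which cells were called here, and the 5-FU matrix lists 12753, all taken as cells.

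At homeostasis cells were the 23931 barcodes with at least 2921 UMIs. Genotypes came from HTODemux in Seurat 5.3.0 (quantile 0.99), with tag B0096 as wild type and B0157 as knockout. At homeostasis 6.02% of cells carried both tags and were removed as doublets and 26.3% carried none. After 5-FU the shares were 3.40% and 25.8%. Doublets within a genotype stayed in. The 2% tails of UMIs, genes and mitochondrial share per library and cells with at least 2 UMIs of 9 lineage genes were removed. Cells under 4000 UMIs (4.70% to 10.5% per pool) entered no class.

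UMIs were summed per pool and class. CPM (counts of a gene per 1000000 UMIs of the pool or class) have exact Poisson intervals, ratios add 0.5 UMIs and have exact binomial intervals at 95%, and both cover counting error only. Classes and phases were compared by edgeR 4.0.16 (quasi-likelihood, TMM, filterByExpr, pool as block, Benjamini-Hochberg over all genes, threshold 0.05) in R 4.3.3. Genotypes were fitted with condition as a term. Differences are log2 with their SE, and the code was tested on simulated data.

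The members, gene lists and tests were chosen with earlier results of these data known. Bins were set after the values were seen. Named genes beyond the members were the 3 most similar genes of at least 20 CPM per member and the pathway genes with the largest differences. Promoter sequences are RefSeq's. Alternatives were other scalings, filters, tag calls, marker thresholds, signatures, non-cycling cells and each pool left out.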

Additional observations from a re-analysis of the deposited data

Results flagged for a closer look

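The contrast of G2/M-positive with non-cycling cells differed between homeostasis and 5-FU for 2 of the 4 genes in edgeR's test of the interaction, which 9.18% of all genes passed. Both calls ended without the homeostasis wild-type pool (adjusted p = 0.302 for Cdkn2c and 0.353 for Cdkn1b) and in DESeq2 (0.203 and 0.126). It was -0.46 for Cdkn2c, with contrasts of 1.34 and 1.22 at homeostasis and 0.54 and 0.81 after 5-FU. It was -0.31 for Cdkn1b, whose contrast was slightly above 0 in both homeostasis pools and below 0 in both 5-FU pools. The conditions were separate libraries with a median of 6616 to 6990 UMIs per cell at homeostasis and 9303 to 10954 after 5-FU, and the part of depth in these differences was not tested.

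The members were also counted in cells that carried neither hashtag, which entered no comparison. In the 6283 untagged cells of the homeostasis library Cdkn1b stood at 55.5, Cdkn1c at 13.1, Cdkn2c at 26.5 and Cdkn2d at 32.2 CPM. In the 3290 untagged cells of the 5-FU library Cdkn1b stood at 107, Cdkn1c at 12.8, Cdkn2c at 28.8 and Cdkn2d at 50.4 CPM. All untagged cells were counted, without the filters on tails and lineage genes that the tagged pools passed. At homeostasis Cdkn1c was below both tagged pools (13.9 and 20.6) and Cdkn1b above both (50.1 and 52.8). After 5-FU Cdkn1c (16.3 and 23.3) and Cdkn2d (56.5 and 69.0) were below both, and Cdkn1b was slightly above both (106 and 91.2). The other values lay between those of the tagged pools of the same library.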

How the results depend on the processing

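Of 488 tests of a member under an alternative 412 kept direction and call, 25 lost the call, 19 gained it and 32 changed sign. Of 56 genotype ratios under an alternative 48 moved by less than their interval. Cdkn1c kept direction and call in the 3 class contrasts (1.28 to 3.16) and in G2/M (-1.55 to -1.02) under each alternative run, and in G2/M Cdkn2c stayed within 0.85 to 1.25 and Cdkn2d within 0.56 to 1.01. Where a value below moved, the cause was not tested. No call of a member in S, G2/M or a class rests on more than 4 pools, and 1 pool per genotype and library limits every genotype value. Leaving out a pool was not run for knockout against wild type, since it leaves no residual degree of freedom. The labels number no replicates, and classes and phases were paired within pools, which entered as blocks.

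With classes called on all UMIs the genes called numbered 2276 in S, 3759 for stem-positive against neutrophil-positive, 2687 against megakaryocyte-erythroid-positive, 2417 against lymphoid-positive cells, 313 for knockout against wild type in stem-positive cells and 2832 for the G2/M difference between conditions. In non-cycling cells only they numbered 2299, 2068 and 2528 against the 3 classes and 694 for knockout against wild type in stem-positive cells. For knockout against wild type in all cells (90 genes) the count was 209 with DESeq2's size factors, 557 with library size only, 564 without a low-count filter, 206 in DESeq2, 208 with a tag holding 80% of hashtag UMIs and 289 at a quantile of 0.95. In stem-positive cells (50 genes) these counts were 218, 157, 1038, 126, 195 and 258, and 225 with lineage cells kept, 125 at a marker threshold of 2 UMIs and 330 at 5. For the G2/M difference between genotypes (0 genes) they were 57 without a filter, 3 in DESeq2, 1 at a threshold of 2 or 5 and 1 to 7 without 1 pool. For that between conditions (1412 genes) they were 906 with DESeq2's size factors, 270 in DESeq2 and 204 to 1418 without 1 pool.

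Among the differences whose sign changed, 2 had been called, those of Cdkn2c (-0.49) and Cdkn1b (0.26) against megakaryocyte-erythroid-positive cells. Cdkn1b in G2/M was 0.0035 at a threshold of 5. Against megakaryocyte-erythroid-positive cells Cdkn1b was -0.12 and Cdkn2c 0.068 in non-cycling cells, and Cdkn1b was -0.055 on all UMIs. Against lymphoid-positive cells Cdkn1b was 0.048 with library size only, 0.0024 without a filter, -0.099 to 0.042 without 1 pool (0.042 without the homeostasis wild-type pool), 0.15 with 80% of tag UMIs, 0.077 at a threshold of 5 and 0.051 in non-cycling cells. There Cdkn2c was -0.0070 with lineage cells kept and -0.013 with the study's signatures, and Cdkn2d -0.12 to 0.33 without 1 pool (-0.12 without the homeostasis wild-type pool). For knockout against wild type Cdkn2c was -0.030 in all cells with 80% of tag UMIs, and in stem-positive cells 0.092 on all UMIs and 0.067 in non-cycling cells, and there Cdkn1b was 0.039 with 80% of tag UMIs. For the G2/M difference between genotypes Cdkn2c ran from -0.32 to 0.42 and Cdkn1b from -0.30 to 0.20 without 1 pool, and Cdkn2c was -0.15 with 80% of tag UMIs, -0.011 at a threshold of 2 and -0.047 on all UMIs. For that between conditions Cdkn2d was -0.057 with DESeq2's size factors, -0.12 with library size only, -0.078 in DESeq2, -0.11 with 80% of tag UMIs, -0.071 at a threshold of 2 and -0.25 to 0.19 without 1 pool.

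Genotype ratios that moved were those of Cdkn1b and Cdkn2d at homeostasis with 80% of tag UMIs (0.18 and 0.16), Cdkn1b and Cdkn1c after 5-FU with the 2% tails kept (-0.28 and 0.38), Cdkn1c after 5-FU as a mean over cells (0.69), and, with the same mix of classes, Cdkn1c (0.24 and 0.38) and Cdkn2d after 5-FU (0.21).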
